A study of Homo sapiens with 4 samples.

Results

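MicroRNA (miRNA) host genes were taken as the rows of the count tables whose symbol has the form MIR or MIRLET, a number and the ending HG. This rule found 64 of the 59050 genes listed, and the 22 hosts with at least 10 counts in at least 2 libraries are reported here. The cells carry the label HepG2, a line of hepatocellular carcinoma cells, and 2 untreated libraries were compared with 2 libraries of cells given doxorubicin at 1 ug/ml for 24 h, a DNA-damaging drug used here to raise p53. The design text calls the libraries of a group biological replicates. The titles, the treatment protocol and the design text place the samples in these groups, while the treatment tag of the doxorubicin samples reads "p53-miRNA", and the former were followed. The titles read "nop53" for the untreated libraries and "p53" for the doxorubicin libraries, but by the labels no gene was deleted or introduced in any group. The stated difference is doxorubicin at 1 ug/ml for 24 h, with the untreated libraries listed at 0 ug/ml and 0 h.

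A miRNA host gene is transcribed into a long primary RNA that carries 1 or more miRNA hairpins in an exon or an intron. In the nucleus the enzyme Drosha and its partner DGCR8 cut the hairpin out, Dicer trims it to a short duplex, and 1 strand is loaded into an Argonaute protein. The loaded miRNA finds messenger RNAs mainly through its seed, the bases near its 5′ end, so that miRNAs with the same seed share many targets. p53 acts on this class directly: it activates transcription of the miR-34a gene and has been linked to faster Drosha cleavage of some primary transcripts. The libraries were made from RNA bound to poly-T beads, so a host's count is meant to measure polyadenylated host RNA and not the mature miRNA. Some transcripts without a poly(A) tail had counts all the same, as given below. In bulk RNA, fewer cells with a transcript and less of it per cell cannot be told apart.

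All 22 reported hosts hold at least 1 miRNA of the RefSeq annotation (GRCh38) within their span. Together they hold 43 hairpins that give 71 distinct mature miRNAs, with 21 of the hairpins in an exon of at least 1 transcript of the host and the other 22 in introns. The mature sequences below belong to the hosts that the results turn on, written 5′ to 3′ with the seed, bases 2 to 8, in capitals. The first 2 are the miRNA of the host with the highest fold change and the miRNA of the best-known p53 target among the hosts, and the next 2 come from hosts whose libraries did not overlap between the groups.
miR-210-3p (MIR210HG): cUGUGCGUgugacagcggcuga
miR-34a-5p (MIR34AHG): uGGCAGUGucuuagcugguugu
miR-193b-3p (MIR193BHG): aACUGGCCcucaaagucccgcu
miR-137-3p (MIR137HG): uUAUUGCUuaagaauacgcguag

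One seed, GAGGUAG of the let-7 family, occurred in 5 mature miRNAs spread over 5 reported hosts. These are shown because the shared seed ties hosts on separate chromosomes to a common set of targets. let-7a-5p is made from a hairpin in MIR100HG and from another in MIRLET7BHG.
let-7a-5p (MIR100HG, MIRLET7BHG): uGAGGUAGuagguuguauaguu
let-7b-5p (MIRLET7BHG): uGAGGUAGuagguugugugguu
let-7c-5p (MIR99AHG): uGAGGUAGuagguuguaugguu
miR-4458 (MIR4458HG): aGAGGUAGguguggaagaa
miR-4500 (MIR4500HG): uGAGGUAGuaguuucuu

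A second seed, ACCCGUA of miR-99a-5p and miR-100-5p, was shared by MIR99AHG and MIR100HG. These 2 hosts also each hold a hairpin for the identical miR-125b-5p, with seed CCCUGAG. The other shared seeds each stayed within 1 host. Examples are AGCACCA of miR-29b-3p and miR-29c-3p in MIR29B2CHG, GCUACAU of miR-221-3p and miR-222-3p in MIR222HG, and AAAGUGC of miR-17-5p and miR-20a-5p in MIR17HG.
miR-29b-3p (MIR29B2CHG): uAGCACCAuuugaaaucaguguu
miR-29c-3p (MIR29B2CHG): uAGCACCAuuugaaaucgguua
miR-221-3p (MIR222HG): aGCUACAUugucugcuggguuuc
miR-222-3p (MIR222HG): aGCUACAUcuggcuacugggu
miR-17-5p (MIR17HG): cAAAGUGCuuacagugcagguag
miR-20a-5p (MIR17HG): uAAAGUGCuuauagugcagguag

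The libraries held 27572740 to 36272180 counts. Levels are given as CPM, which is 1e+06 times the count over the total count of its library, and they are not compared between genes. Untreated replicate 2 stood apart from the other 3 libraries. The summed CPM of 89 histone genes, most of whose messages lack a poly(A) tail, came to 565 for untreated replicate 1 and 3310 for untreated replicate 2. It was 557 and 459 for the doxorubicin libraries. In the same order, the summed CPM of 8 transcripts without such a tail was 77, 150, 63.5 and 107. Most of this sum was RN7SL1, at 58.6, 135, 52.6 and 91.2, while RMRP had 18.2, 14.2, 10.8 and 15.5. Of the 8 transcripts, 4 were at 0 in all libraries. Of the 17479 genes tested, 46% were at least 2-fold apart between the untreated libraries and 6.10% between the doxorubicin libraries. The part of this library in the results below was not tested, and fold changes are given with and without it. The label HepG2 was at odds with the liver markers. Albumin had at most 3 counts in any library, and the summed CPM of 15 liver genes was 1.35, 5.89, 17.1 and 20.1. In the doxorubicin libraries most of this sum was the fibrinogen gene FGG, at 9.76 and 14.0, against 0.165 and 0.104 in the untreated libraries. MIR122HG, the host of the liver miRNA miR-122, had 1, 0, 0 and 1 counts, which is not read here for or against the label. The summed CPM of 6 simple epithelial genes was 5899, 4752, 3527 and 3026, nearly all from KRT8 and KRT18. EPCAM, CDH1, KRT19 and ESRP1 of this list had 0 to 21 counts per library. The summed CPM of 7 mesenchymal genes, mostly VIM, was 927, 844, 1201 and 1005. That of 8 squamous or basal epithelial genes, mostly KRT17, was 1186, 1952, 1772 and 1485. Which cell type this reflects was not tested.

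No host was called at an adjusted p under 0.05 with at least a 2-fold change (edgeR's quasi-likelihood test, Benjamini-Hochberg adjustment over all 17479 genes tested), in either direction. The background for this call was 0% of all genes, so the test made no call for any gene. At an unadjusted p under 0.05, 1 of the 22 hosts, MIR210HG, was higher with doxorubicin, against 2.66% of all genes, and 0 hosts were lower, against 1.73%, which makes 1 host in either direction against 4.39%. In the earlier form of the test 0 hosts were past this value, against 4.02% of all genes. With the replicate number as a block, 0 hosts were called higher at the adjusted threshold, against 0.0915% of all genes, and in DESeq2 0 hosts were, against 0.286%. All 22 hosts passed edgeR's expression filter. Their log2 fold changes, doxorubicin over untreated, had a median of 0.02, with 11 hosts above 0 and 11 below, and the median over all genes tested was 0.01. The lowest adjusted p among them was 0.773. Without untreated replicate 2 the median of the hosts was -0.21 and that of all genes was 0.048, and without untreated replicate 1 they were 0.25 and 0.057. The median of the hosts thus changed sign with the untreated library kept.

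**Figure D1:**
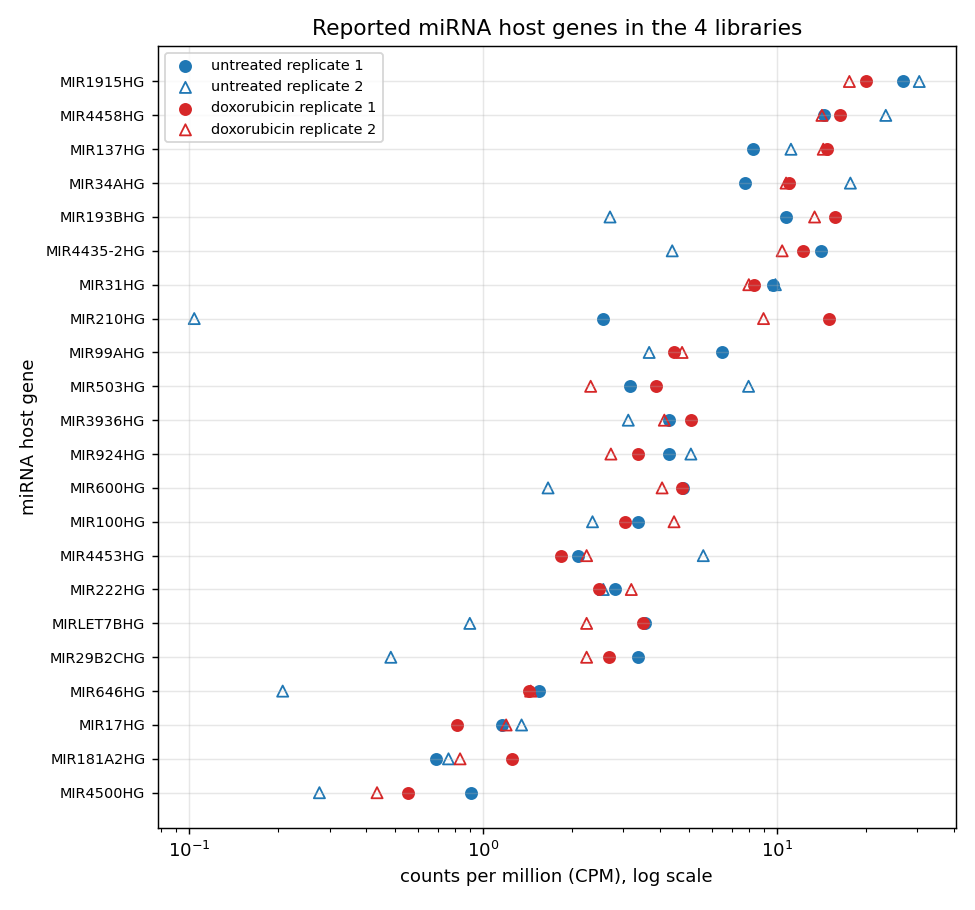
Level of each of the 22 reported miRNA host genes in the 4 libraries, in CPM on a log scale, with 1 marker per library. The doxorubicin libraries lie close to each other for most hosts, while untreated replicate 2 is the lowest of the 4 libraries for 11 hosts and the highest for 8.

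MIR210HG had the highest fold change of the hosts. It is the host of miR-210, a miRNA best known for its induction by the hypoxia-inducible factors. The gene lies on the minus strand at chr11:565657-568457 (GRCh38), miR-210-3p lies in an intron, and no other annotated exon overlaps its exons. Untreated replicate 1 had 93 counts, a CPM of 2.56, and untreated replicate 2 had 3 counts, a CPM of 0.104. Doxorubicin replicate 1 had 515 counts, a CPM of 15, and doxorubicin replicate 2 had 248 counts, a CPM of 8.99. Both doxorubicin libraries thus lay above both untreated libraries, and the untreated libraries were far apart from each other. The log2 fold change was 2.96 (SE 1.02), a 7.76-fold difference, with an unadjusted p of 0.0302 and an adjusted p of 0.773 in edgeR's quasi-likelihood test. In the earlier form of that test the unadjusted p was 0.0658.

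How large the MIR210HG difference was depended on the untreated library it was set against. Against untreated replicate 1 the doxorubicin libraries were 5.85-fold (exact 95% interval for counting error 4.69 to 7.38) and 3.51-fold (2.75 to 4.50) higher. Against the 3 counts of untreated replicate 2 the ratios were 144 (49.2 to 703) and 86.6 (29.3 to 423). Without untreated replicate 2 the log2 fold change was 2.10, with an adjusted p of 6.91e-07 in edgeR, where the spread comes from the doxorubicin pair alone and the lone untreated library is assumed to vary like it. Without untreated replicate 1 the log2 fold change was 6.63, with an adjusted p of 3.22e-22 on the same assumption. MIR210HG was the 1 host of 22 in which both doxorubicin libraries were at least 2-fold above untreated replicate 1, which 9.68% of all genes tested were.

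The promoter window of MIR210HG was read because the host is known for its response to hypoxia-inducible factors. It was searched for ACGTG, a form of their core site, and the form GCGTG was not searched. The RefSeq window (GRCh38.p14, chr11:568408-568707, minus strand) runs from 250 bases before the gene start to 50 bases after it and is printed below with the match in capitals. The window held 1 match to ACGTG, which begins 170 bases before the gene start. Over all promoter windows of this length, 21.4% (7518 of 35116) held the letters on either strand. Counted per gene, over any of its windows, 24.9% of genes did (6790 of 27305), and so did 33.3% of the reported hosts with an entry, 7 of 21: MIR210HG, MIR34AHG, MIR137HG, MIR600HG, MIR100HG, MIRLET7BHG and MIR503HG. A match is a description of the letters and not of binding.
MIR210HG promoter: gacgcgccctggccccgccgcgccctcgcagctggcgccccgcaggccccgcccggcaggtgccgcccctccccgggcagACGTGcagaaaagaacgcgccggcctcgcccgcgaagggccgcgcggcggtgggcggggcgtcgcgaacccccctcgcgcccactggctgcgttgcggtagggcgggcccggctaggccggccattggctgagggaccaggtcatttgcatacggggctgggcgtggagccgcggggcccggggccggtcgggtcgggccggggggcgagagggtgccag

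**Figure D2:**
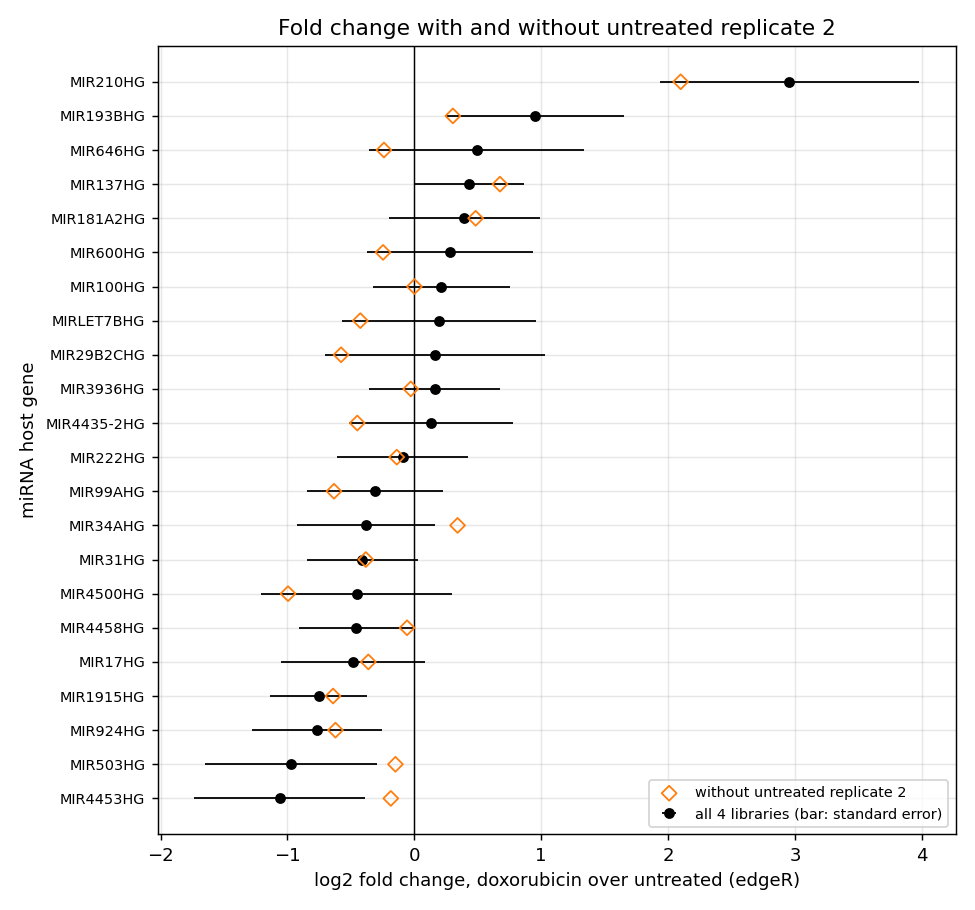
Log2 fold change, doxorubicin over untreated, of each reported host in edgeR with all 4 libraries (filled points, bars of 1 standard error) and without untreated replicate 2 (open diamonds). MIR210HG lies at 2.96 and 2.10, and the other 21 hosts lie between -1.06 and 0.95 with all libraries and between -0.99 and 0.68 without that library.

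The hosts chosen to be named for a known tie to p53 were MIR34AHG, MIR17HG and MIR22HG. They are not a full list of hosts tied to p53. MIR34AHG (chr1:9148011-9198906, minus strand, GRCh38) holds miR-34a in an exon, a miRNA that represses cell cycle genes. Its CPM was 7.80 and 17.8 in the untreated libraries and 11 and 10.7 in the doxorubicin libraries. The doxorubicin values lay between the untreated values, so the groups overlapped. Its log2 fold change was -0.38 (SE 0.54, adjusted p = 0.838 in edgeR), and it was 0.34 without untreated replicate 2 and -0.89 without untreated replicate 1. The direction for MIR34AHG therefore turned with the untreated library kept.

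MIR17HG (chr13:91347686-91397592, plus strand) carries the miR-17-92 cluster, which promotes proliferation and which p53 has been reported to repress. Its CPM was 1.16 and 1.35 in the untreated libraries and 0.816 and 1.2 in the doxorubicin libraries. The groups overlapped, and the log2 fold change was -0.48 (SE 0.57, adjusted p = 0.814 in edgeR), and -0.36 without untreated replicate 2. Other annotated exons overlap 20.5% of its exon bases, the largest share among the 22 hosts, and the gene with most of this overlap lies on the other strand. Whether strand was used in counting is not given in the sources used here, so reads of such genes cannot be told apart. MIR22HG, the host of the p53-linked miR-22, was listed at 0 in all 4 libraries, which allows a CPM of up to 0.0827 to 0.109 by library for counting error alone. Whether this 0 reflects the cells or how reads were assigned to the gene was not tested.

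Protein-coding p53 targets were read beside these hosts, from a list of genes known from other work. Of 25 such genes, 24 were tested and 0 passed the adjusted test. At an unadjusted p under 0.05 in edgeR 1, GDF15, was higher, against 2.66% of all genes tested, and 0 were lower, against 1.73%. GDF15, a stress-induced cytokine, had a CPM of 191 and 448 in the untreated libraries and 832 and 877 in the doxorubicin libraries. Its groups did not overlap, and 30.3% of all genes tested likewise had both doxorubicin libraries above both untreated libraries. The log2 fold change of GDF15 was 1.26, and 2.02 without untreated replicate 2. CDKN1A, the cell cycle inhibitor p21, had a CPM of 380 and 866 in the untreated libraries against 1003 and 880, with a log2 fold change of 0.44, and of 1.17 without untreated replicate 2. The highest log2 fold change of the list was that of TNFRSF10C, at 1.71 from 4 to 31 counts per library, followed by GDF15. The 2 lowest were those of BTG2, at -1.58, and FDXR, at -1.21. Without untreated replicate 2 the values of TNFRSF10C, BTG2 and FDXR were 2.78, 0.43 and -0.13. Over the tested targets the log2 fold changes had a median of -0.19, with 11 of 24 above 0. The median was 0.25 without untreated replicate 2, with 19 above 0.

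In 4 of the 22 hosts (18.2%) both doxorubicin libraries lay above both untreated libraries in CPM, against 30.3% of all genes tested, and in 3 (13.6%) both lay below, against 11.5%. The share above was under that of all genes and the share below was near it. The 4 above were MIR210HG, MIR193BHG, MIR137HG and MIR181A2HG, and the 3 below were MIR1915HG, MIR31HG and MIR924HG. With CPM scaled by TMM factors, which correct for library composition, MIR181A2HG left the first set, which then held 3 hosts against 21.3% of all genes, and MIR4453HG and MIR17HG joined the second, which then held 5 against 17.9%.

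**Figure D3:**
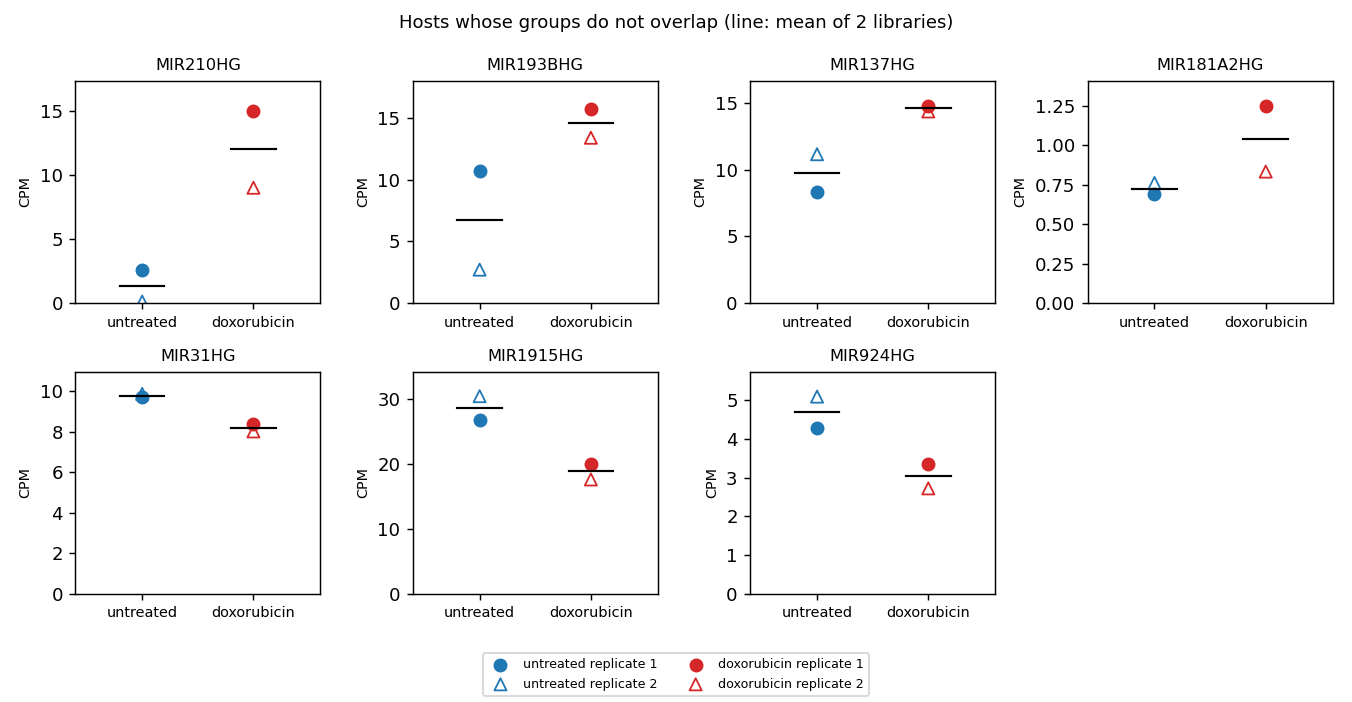
CPM of the 7 hosts whose untreated and doxorubicin libraries did not overlap, with 1 marker per library and each vertical axis starting at 0. For MIR210HG and MIR193BHG untreated replicate 2 lies far below untreated replicate 1, while for MIR1915HG and MIR31HG the untreated libraries lie close together above the doxorubicin libraries.

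MIR193BHG (chr16:14301389-14331067, plus strand) hosts miR-193b and miR-365a, which have been described as inhibitors of tumour cell growth. Its CPM was 10.8 and 2.7 in the untreated libraries and 15.7 and 13.4 in the doxorubicin libraries. The gap between the untreated libraries was wider than that between untreated replicate 1 and either doxorubicin library. The log2 fold change was 0.95 (SE 0.71, adjusted p = 0.775 in edgeR) and 0.30 without untreated replicate 2, so most of its size came with that library.

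MIR137HG (chr1:97933474-98049871, minus strand) hosts miR-137, a miRNA studied mostly in neurons. Its CPM was 8.30 and 11.2 in the untreated libraries and 14.8 and 14.4 in the doxorubicin libraries. Here untreated replicate 2 was the nearer of the untreated libraries to the doxorubicin pair. The log2 fold change was 0.43 (SE 0.43, adjusted p = 0.802 in edgeR) and reached 0.68 without untreated replicate 2, the second highest among the hosts in that fit after MIR210HG.

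MIR1915HG (chr10:21490272-21497260, minus strand), the host of miR-1915, had a CPM of 26.7 and 30.5 in the untreated libraries and 20.1 and 17.6 in the doxorubicin libraries. The untreated libraries were close to each other, and the log2 fold change was -0.75 (SE 0.38, unadjusted p = 0.0994, adjusted p = 0.773 in edgeR), the smallest standard error and the second lowest unadjusted p of the 22 hosts. It was -0.64 without untreated replicate 2 and -0.87 without untreated replicate 1. MIR1915HG was thus lower with doxorubicin against either untreated library, though its difference did not pass the test.

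MIR31HG (chr9:21380073-21559891, minus strand) hosts miR-31, which acts on cell migration, and 12.4% of its exon bases overlap other exons. Its CPM was 9.70 and 9.87 in the untreated libraries and 8.36 and 8.02 in the doxorubicin libraries. The log2 fold change of -0.41 (SE 0.44, adjusted p = 0.805 in edgeR) barely moved without untreated replicate 2 (-0.38) or without untreated replicate 1 (-0.45). MIR924HG and MIR181A2HG fall outside the rule for named genes and were picked after their values were seen. MIR924HG had a CPM of 4.27 and 5.09 against 3.35 and 2.72, and MIR181A2HG, a host of miR-181a and miR-181b, had a CPM of 0.689 and 0.762 against 1.25 and 0.834. Neither passed the test, at log2 fold changes of -0.77 and 0.39 and unadjusted p values of 0.187 and 0.535 in edgeR. Without untreated replicate 2 the log2 fold changes were -0.62 and 0.48.

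The 5 hosts of miRNAs with the let-7 seed showed no common direction with all 4 libraries. let-7 miRNAs repress RAS and LIN28 messages and accumulate as cells differentiate. The log2 fold changes of the 5 hosts ran from -0.46 to 0.21, with unadjusted p values of 0.349 to 0.809 and adjusted p values of 0.798 to 0.943 in edgeR. Without untreated replicate 2 the range was -0.99 to 0.00. These hosts were grouped by the seed and not by their values, and all 5 failed the test.

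Of these hosts, MIR4458HG (chr5:8450701-8486930, plus strand) is the 1 that the rule for named genes takes. Its CPM was 14.5 and 23.4 in the untreated libraries and 16.4 and 14.2 in the doxorubicin libraries, with a log2 fold change of -0.46, and of -0.057 without untreated replicate 2. MIRLET7BHG (chr22:46053869-46113928, plus strand), with let-7a-3 and let-7b, had a CPM of 3.56 and 0.900 against 3.50 and 2.25. In both hosts untreated replicate 2 was the extreme library, the highest for MIR4458HG and the lowest for MIRLET7BHG, and the other 3 libraries lay nearer to each other.

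MIR100HG (chr11:122028325-122556721, minus strand) hosts let-7a-2, miR-100 and miR-125b-1, and its CPM was 3.36 and 2.35 against 3.03 and 4.46. MIR99AHG (chr21:15928296-16646364, plus strand) hosts the related set of let-7c, miR-99a and miR-125b-2, and its CPM was 6.48 and 3.67 against 4.46 and 4.75. MIR4500HG (chr13:87427214-87674235, minus strand) had a CPM of 0.910 and 0.277 against 0.554 and 0.435, from 8 to 33 counts per library. The groups overlapped in all of the 5 hosts, with at least 1 doxorubicin library inside the range of the untreated pair or the reverse.

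**Figure D4:**
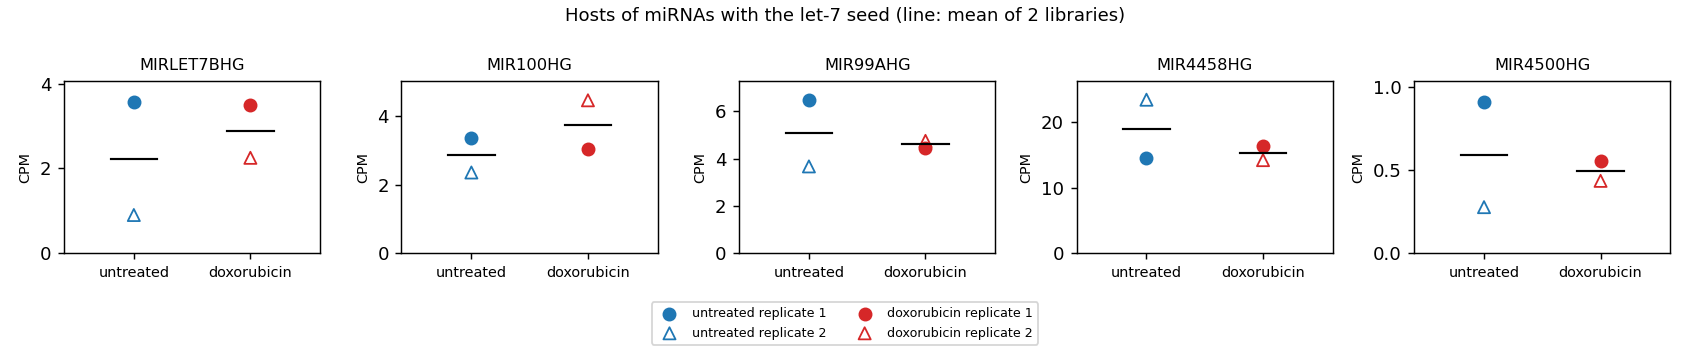
CPM of the 5 hosts of miRNAs that carry the let-7 seed, with 1 marker per library and each vertical axis starting at 0. The untreated and doxorubicin libraries overlap in each host, and untreated replicate 2 is the highest library for MIR4458HG and the lowest for the other 4.

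Untreated replicate 2 was the lowest of the 4 libraries for 11 of the 22 hosts (50%), against 45% of all genes tested, and the highest for 8 (36.4%), against 36.6%. The untreated libraries were at least 2-fold apart for 11 hosts (50%), against 46% of all genes, and the doxorubicin libraries for 0 hosts, against 6.10%. The hosts shared this spread with genes at large. In 8 of the 11 hosts untreated replicate 2 was lower, at 0.0405 to 0.349 of the level in untreated replicate 1, and in 3 it was higher: MIR34AHG at 2.28 times, MIR503HG at 2.52 times and MIR4453HG at 2.68 times.

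Of the 8 hosts that were lower, MIR4435-2HG is named by the rule and the others below were picked for this difference. MIR4435-2HG (chr2:111006015-111523376, minus strand) codes for a long non-coding RNA that in myeloid cells acts on the cell death gene BCL2L11, and it has a close copy, CYTOR, with which reads may be shared, so its counts are uncertain. Its CPM was 14.1 and 4.40 in the untreated libraries and 12.2 and 10.4 in the doxorubicin libraries. The log2 fold change was 0.13 (SE 0.65, adjusted p = 0.956 in edgeR), and -0.45 without untreated replicate 2.

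MIR29B2CHG hosts miR-29b and miR-29c, which repress collagen and other matrix genes, and 12.5% of its exon bases lie under exons of other genes, CD46 on the other strand among them. Its CPM was 3.36 and 0.485 against 2.68 and 2.25, so the doxorubicin libraries lay just below untreated replicate 1 and far above untreated replicate 2. MIR646HG had 1.54 and 0.208 against 1.43 and 1.45, and MIR600HG had 4.77 and 1.66 against 4.75 and 4.06. All 3 were within 1.5-fold of untreated replicate 1 in both doxorubicin libraries, and their log2 fold changes without untreated replicate 2 were -0.58, -0.24 and -0.25.

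Untreated replicate 2 was high for MIR503HG, the host of miR-503, which targets cyclins. Its CPM was 3.17 and 8.0 in the untreated libraries and 3.88 and 2.32 in the doxorubicin libraries, with a log2 fold change of -0.97, and of -0.15 without untreated replicate 2. MIR4453HG had 2.10 and 5.61 against 1.84 and 2.25, and its log2 fold change of -1.06 (SE 0.67, adjusted p = 0.773 in edgeR), the lowest of the 22 hosts, was -0.19 without untreated replicate 2. The low value for MIR4453HG was thus carried by a single library.

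The last 2 hosts were MIR222HG and MIR3936HG. MIR222HG hosts miR-221 and miR-222, which repress the cell cycle inhibitor CDKN1B, and its CPM was 2.81 and 2.56 against 2.48 and 3.19. It was among the steadiest of the hosts across the 4 libraries, with a log2 fold change of -0.09 (SE 0.52), and of -0.14 without untreated replicate 2. MIR3936HG had a CPM of 4.30 and 3.12 against 5.10 and 4.13, with log2 fold changes of 0.16 and, without that library, -0.028, and other exons overlap 11.9% of its exon bases.

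**Figure D5:**
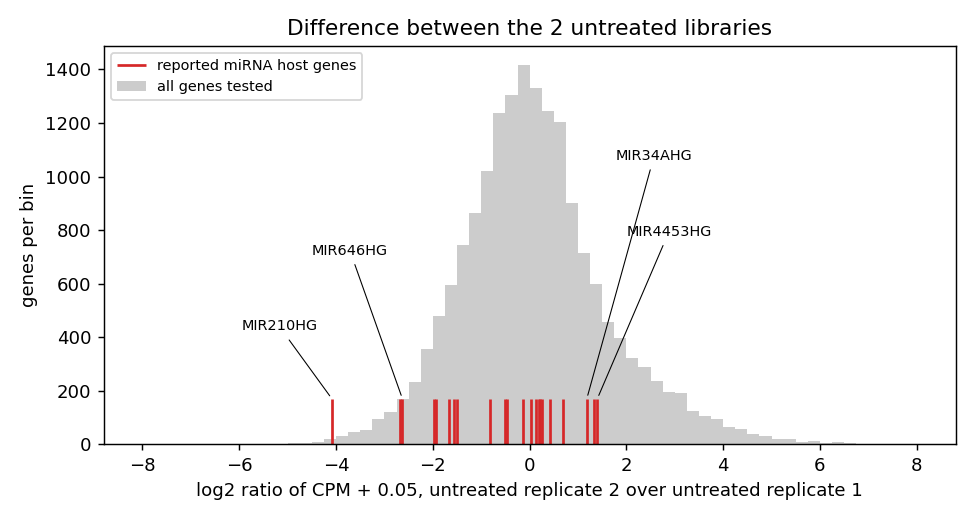
Distribution over all genes tested of the log2 ratio of CPM between untreated replicate 2 and untreated replicate 1, with 0.05 added to each CPM (grey bars, genes per bin), and the 22 reported hosts as red lines. The hosts are spread over the width of the distribution, from MIR210HG at the far left to MIR4453HG at the right.

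Set against untreated replicate 1 alone, 5 hosts (22.7%) had both doxorubicin libraries above it, against 53.1% of all genes tested, and 10 (45.5%) had both below it, against 24.7%. MIR34AHG joined the 4 hosts above. The 7 that joined the 3 below were MIR29B2CHG, MIR4435-2HG, MIR600HG, MIR4500HG, MIR646HG, MIR99AHG and MIRLET7BHG. Among the 10 below, none was at least 2-fold lower in both doxorubicin libraries, and 0.566% of all genes were. In edgeR without untreated replicate 2, MIR210HG was the 1 host of 22 called higher, against 4.42% of all genes, and 0 were called lower, against 0.566%.

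Of the 64 hosts, 42 stayed below the minimum of 10 counts in 2 libraries. Among these, 32 had some counts and 10 were listed at 0 in every library. They summed to a CPM of 1.27, 4.92, 1.69 and 1.05 over the libraries, against 137, 136, 153 and 134 for the 22 reported hosts, so the reported hosts held nearly all host reads.

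Other genes with a miRNA in an intron or exon, whose names do not end in HG, were read as a second list. Of 45 such names, 40 were tested, with 0 adjusted calls, and at an unadjusted p under 0.05 there were 0 higher, against 2.66% of all genes tested, and 4 lower, against 1.73%. Their median log2 fold change was -0.03, with 16 of 40 above 0, and it was -0.27 without untreated replicate 2, with 13 above 0. The 4 were MCM7, SREBF1, SREBF2 and SLIT2. MCM7, a subunit of the replicative helicase and host of miR-106b, miR-93 and miR-25, had a CPM of 530 and 846 against 413 and 379, a log2 fold change of -0.95 that was -0.56 without untreated replicate 2. SREBF1 and SREBF2, the regulators of lipid and cholesterol synthesis that host miR-33b and miR-33a, had 257 and 231 against 169 and 130, and 239 and 230 against 161 and 155. All 4 doxorubicin values of this pair lay below the untreated values, and their log2 fold changes of -0.86 and -0.73 were -0.92 and -0.74 without untreated replicate 2.

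SLIT2, an axon guidance ligand that hosts miR-218-1, had the lowest log2 fold change of that list, -1.47, from a CPM of 44.2 and 106 against 27.5 and 33.3, and it was -0.69 without untreated replicate 2. The highest values were those of LPP, a host of miR-28, at 1.18 and H19, the imprinted host of miR-675, at 0.98. LPP had a CPM of 33.7 and 3.50 against 41.9 and 53.3, so its value rested largely on untreated replicate 2 and was 0.36 without it. H19 had 121 and 62.4 against 275 and 123, and doxorubicin replicate 2 lay only just above untreated replicate 1, and its value was 0.59 without untreated replicate 2.

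The genes that process miRNAs, among them those of Drosha, DGCR8, Dicer and the Argonautes, gave 0 calls of 20 tested, adjusted or not. Their median log2 fold change was 0.27, with 14 of 20 above 0. It was -0.06 without untreated replicate 2, with 7 of 20 above 0, so the direction of this list turned with that library as well.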

How the data were processed

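Per the labels, total RNA of 4 cultures was purified on poly-T beads and sequenced. The authors trimmed reads with Cutadapt, aligned them with HISAT2 to hg38 and counted them with HTSeq, and the file headers name GENCODE 31. Tool versions and use of strand are not given in the sources used here. The deposited values are raw counts per gene, 27572740 to 36272180 per library.

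Counts were tested in edgeR 4.0.16 (R 4.3.3) with the quasi-likelihood test in its current form, TMM factors, filterByExpr and a prior count of 0.125. The SE is the log2 fold change divided by the root of F. Calls were made at an adjusted p under 0.05 where the log2 fold change was 1 or more in size. The scripts were tested on simulated data. Intervals and limits for counts of 0 (3 counts) cover counting error only. Alternatives were DESeq2 1.42.0, edgeR's exact test, RLE factors, column totals, no filter, a prior count of 2, a replicate block and leaving out each library. The earlier form of the quasi-likelihood test was added after the data were seen. Annotation came from GENCODE 44, which held 62 of the 64 hosts, and sequences from RefSeq, both GRCh38. Named hosts were those with no overlap between groups and at least a 2-fold change, an unadjusted p under 0.05 or a mean CPM of at least 5. MIR34AHG, MIR22HG and MIR17HG were named for a known tie to p53. In the lists of p53 targets, other miRNA hosts and processing genes, the planned rule named genes past the adjusted threshold. It also named the 2 highest and 2 lowest of the other miRNA hosts. Genes of these lists at an unadjusted p under 0.05, the 2 highest and 2 lowest p53 targets and CDKN1A were named outside the planned rule. Members and lists were chosen with earlier results of these data known.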

Additional observations from a re-analysis of the deposited data

How the results depend on the processing

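No host was called under another normalization, filter, prior count, replicate block or tool. Over all genes the number called was 0, and it was 38 with the exact test of edgeR, 20 with the replicate block, 150 with DESeq2 and 0 to 7173 when 1 library was left out. Leaving out 1 library gave 0 to 9 called hosts and 0 to 13 hosts at an unadjusted p under 0.05, and the upper ends came without untreated replicate 1, where untreated replicate 2 stands alone for its group and where 7173 of the 17479 genes tested were called and 10614 were at an unadjusted p under 0.05. In the earlier form of the quasi-likelihood test 0 hosts were at an unadjusted p under 0.05. MIR210HG stayed higher in each fit: its log2 fold change was 3.49 with the replicate block (adjusted p = 0.0946 in edgeR) and 2.96 in DESeq2 (adjusted p = 0.116), and it ran from 2.10 to 6.63 when 1 library was left out. Same-numbered libraries did not deviate together (correlation -0.0149), so the numbers were not read as pairs.

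Leaving out 1 library moved the median of the hosts over -0.21 to 0.25, that of the p53 targets over -0.49 to 0.25 and that of the processing genes over -0.061 to 0.83. The number of hosts with both doxorubicin libraries below the untreated libraries was 5 with TMM-scaled CPM and 10 without untreated replicate 2. Of the 22 hosts, 11 changed sign when 1 library was left out, none of them past the threshold with all libraries. The share of all genes tested that changed sign was not computed, so this count is not read as particular to hosts. The ranges were -0.89 to 0.34 for MIR34AHG, -0.58 to 2.16 for MIR29B2CHG, -0.45 to 1.18 for MIR4435-2HG, -0.050 to 0.39 for MIR3936HG, -0.25 to 1.23 for MIR600HG, -0.034 to 0.47 for MIR100HG, -0.99 to 0.66 for MIR4500HG, -0.24 to 2.59 for MIR646HG, -0.63 to 0.14 for MIR99AHG, -0.43 to 1.51 for MIRLET7BHG and -0.23 to 0.044 for MIR222HG. MIR222HG was also at 0.067 with column totals alone, a scaling that moved the median of all genes from 0.01 to 0.17. The cause of these changes was not tested. With 2 libraries a group and a pair of untreated libraries this far apart, hosts under about 1 CPM rest on few counts, and a difference that did not pass is not shown to be absent.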

Other observations

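The 42 hosts below the minimum include hosts of miRNAs known for particular tissues. MIR122HG, of the liver, had 1, 0, 0 and 1 counts in untreated replicates 1 and 2 and doxorubicin replicates 1 and 2. MIR155HG, of activated immune cells, had 1, 3, 1 and 1, and MIR133A1HG, of muscle, had 1, 0, 2 and 0. MIR1-1HG, also of muscle, and MIR302CHG, of pluripotent stem cells, were listed at 0 in all 4 libraries, as were MIR3945HG, MIR4290HG, MIR3663HG, MIR670HG, MIR4307HG, MIR381HG, MIR3976HG and MIR22HG.

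Some counts below the minimum were uneven over the libraries. In 8 of the hosts below the minimum all counts came from untreated replicate 2, against 1 host for untreated replicate 1, 0 for doxorubicin replicate 1 and 2 for doxorubicin replicate 2. Over all genes untreated replicate 2 also had the most genes with a count, 31258. Untreated replicate 1 had 25734, and the doxorubicin libraries had 27609 and 27551. The share of all genes with counts in a single library was not computed, so this is not read as particular to hosts. MIR7-3HG, a host of miR-7, had 0, 43, 2 and 0 counts in the same order, MIR378D2HG had 0, 16, 0 and 0, and MIR1302-2HG had 0, 14, 0 and 1. MIR200CHG and MIR205HG, hosts of miRNAs that mark epithelial cells, had 0, 10, 0 and 0 and 0, 4, 0 and 0, and MIR9-3HG, of neural cells, had 0, 5, 0 and 0. MIR762HG had 3, 1, 14 and 4 counts, and MIR4697HG had 0, 0, 6 and 3. These hosts were picked after their counts were seen and were not tested, and the source of the reads was not tested.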
